A study of Homo sapiens with 6 samples.

Results

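The markers described here are 9 genes linked to the identity and the quiescent state of hepatic stellate cells, *PPARG*, *LRAT*, *PLIN2*, *RELN*, *NGFR*, *GFAP*, *DES*, *VIM* and *HGF*. They were taken by name from a table of 33900 genes measured by RNA sequencing in LX-2 cells, and each name matched 1 row. LX-2 is an established human stellate cell line of wild-type genotype, kept in DMEM with fetal bovine serum. Of the 6 samples, 3 were treated with recombinant human Sema3C (rhSema3C) at 300 ng/ml for 48 h and 3 with PBS for the same time. All 6 come from 1 cultured line, and the labels call the samples of a group biological replicates. Whether these were separate cultures is not stated, so p-values measure the spread between these samples. The comparison asks whether these genes were expressed in LX-2 cells in PBS and whether they changed with rhSema3C.

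In the healthy liver, quiescent stellate cells store vitamin A as retinyl esters in cytoplasmic lipid droplets. On activation they lose these droplets and turn into contractile, collagen-producing cells. *LRAT* encodes the enzyme that esterifies retinol for storage, *PLIN2* encodes a coat protein of lipid droplets, and *PPARG* encodes a lipid-activated nuclear receptor associated with quiescence. *VIM*, *DES* and *GFAP* encode the intermediate filament proteins vimentin, desmin and glial fibrillary acidic protein. *RELN* encodes the secreted glycoprotein reelin, *NGFR* the low-affinity neurotrophin receptor p75, and *HGF* hepatocyte growth factor, a mitogen for hepatocytes.

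The total counts on genes ranged from 68267808 to 89245585 per sample. Mitochondrial genes took between 4.75% and 5.42% of the counts in PBS and between 3.73% and 3.93% with rhSema3C. How far this difference enters the values below was not tested. Of 6 mesenchymal markers, *PDGFRB*, *COL1A1*, *THY1* and *LUM* had a mean of at least 1 FPKM (fragments per kilobase of exon, scaled by the authors to library size). *COL1A2* and *DCN*, which encode a collagen I chain and decorin, had 0.130 ± 0.0136 and 0.0098 ± 0.0018 FPKM in PBS (SD, n = 3). The summed level of the 6 was between 1060.2 and 1207 CPM (counts scaled to the TMM-normalised library size) in PBS and between 647 and 701 CPM with rhSema3C, and 2 of the 4 tested were lower. The 6 neural or glial markers each had a mean under 0.5 FPKM, and their summed level was between 4.74 and 6.06 CPM in PBS and between 4.23 and 6.76 with rhSema3C. The summed level of 5 liver endothelial markers reached 1.80 CPM in PBS and 8.78 CPM with rhSema3C in the highest samples, with none of them at a mean of 1 FPKM. The sum of 4 hepatocyte markers went from between 13.9 and 16.8 CPM to between 17.2 and 20.9 CPM, and that of 6 macrophage and blood markers from between 7.86 and 9.75 CPM to between 5.04 and 6.04 CPM. The part of these shifts in the results was not tested.

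In PBS, 1 of the 9 markers was abundant, 2 were moderate and 6 were low or near 0. *VIM* had 1035 ± 36.5 FPKM (SD, n = 3) and ranked 20 among the 33900 genes. *PLIN2* followed with 6.06 ± 0.229 and *NGFR* with 3.40 ± 0.336 FPKM. *RELN* had 0.628 ± 0.125 FPKM. *PPARG*, *HGF* and *GFAP* had 0.141 ± 0.0460, 0.102 ± 0.0356 and 0.0796 ± 0.0125 FPKM, and in this order each of them overlapped the next one between samples. *DES* had 0.0072 ± 0.0125 FPKM, and *LRAT* was listed at 0 in each PBS sample. The lowest *VIM*, *PLIN2*, *NGFR* and *RELN* values in PBS each lay above the highest value of the gene that followed.

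**Figure D1:**
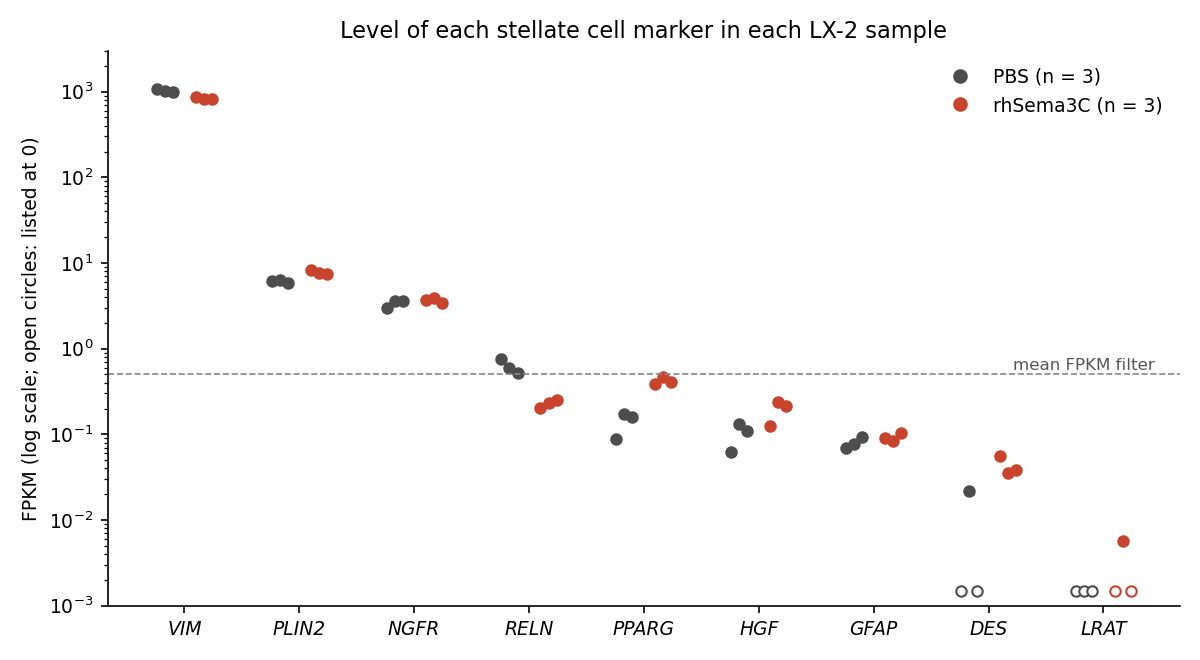
Level of the 9 markers in each sample, in FPKM on a log scale, with PBS in grey and rhSema3C in red (n = 3 samples each) and values listed at 0 as open circles at the bottom. VIM stands between 814 and 1074 FPKM and PLIN2 and NGFR between 3.01 and 8.38, while the mean of the other 6 genes over the 6 samples lies under the line at 0.5.

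These FPKM values rest on the merged exons of all transcripts of a gene. The length implied by count and FPKM was 1.02 times the merged exon length of GENCODE 29 in the median gene. For *VIM* the merged exons span 5.16 kb, against 2.13 kb for its longest coding transcript. Per kilobase of the longest coding transcript, the PBS levels were 2502 for *VIM*, 15.6 for *PLIN2*, 0.314 for *PPARG*, 0.167 for *HGF* and 0.147 for *GFAP*, and the order of the 9 genes was the same.

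Differences between rhSema3C and PBS were tested in edgeR by quasi-likelihood, and adjusted p-values are Benjamini-Hochberg values over all genes in the fit. Among the 14178 genes with a mean of at least 0.5 FPKM, 62.3% passed an adjusted p of 0.05, with 31.7% higher and 30.6% lower in the rhSema3C samples. In 67.8% of these genes the groups did not overlap, as was so for *PLIN2* and *VIM*. Of the 3 markers in this test, *PLIN2* rose, *VIM* fell and *NGFR* did not pass. The other 6 markers were under the filter. *RELN* was among them, with between 224 and 892 counts per sample over 12.6 kb of merged exons. Its mean was 0.628 FPKM in PBS and 0.228 with rhSema3C. The filter uses the mean over both groups, which was 0.428, so the lower rhSema3C values put *RELN* under it. The 6 markers under the filter were tested only with all 33900 genes in the fit, where 24.8% of the genes differed. In that fit *PPARG* and *PLIN2* rose and *RELN* and *VIM* fell, so 4 of the 9 markers passed. In 36% of the 33900 genes the groups did not overlap, and of the markers this held for these 4 and for *DES*. With 3 samples in each group, the smallest two-sided p of an exact permutation test on 1 gene is 0.1. In bulk RNA, fewer cells of a kind and less RNA per cell cannot be told apart.

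*PPARG* (ENSG00000132170) lies on the plus strand of chromosome 3, from 12287368 to 12434356 on GRCh38. It had 38, 60 and 51 counts under PBS and 151, 193 and 153 under rhSema3C. On the CPM scale these were 0.444, 0.861 and 0.775 in PBS, and 1.75, 2.11 and 1.84 with rhSema3C. The rhSema3C samples all exceeded the PBS samples. The means were 0.694 ± 0.220 and 1.90 ± 0.187 CPM (SD, n = 3 per group), a 2.74-fold difference. This is a log2 fold change of 1.45 with a standard error of 0.29 (edgeR quasi-likelihood over all 33900 genes, adjusted p = 0.0046). Leaving out any 1 sample, it stayed between 1.21 and 1.64. The transcript remained rare, at 0.417 ± 0.0416 FPKM with rhSema3C.

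*PLIN2* (ENSG00000147872), on the minus strand of chromosome 9 from 19108375 to 19149290, rose less. Its expression was 32.7, 33.6 and 30.9 CPM under PBS, and 41.8, 38.0 and 37.4 CPM under rhSema3C. All rhSema3C samples lay above all PBS samples, by a narrow margin. The means were 32.4 ± 1.38 and 39.1 ± 2.40 CPM (SD, n = 3 per group), a 1.21-fold difference. On the log2 scale the rise was 0.27 with a standard error of 0.07 (edgeR quasi-likelihood, adjusted p = 0.0048). With all 33900 genes in the fit the adjusted p of *PLIN2* was 0.021, and it rose to 0.058 without PBS replicate 1 and to 0.074 without PBS replicate 3.

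*LRAT* (ENSG00000121207), on the plus strand of chromosome 4 from 154626945 to 154753118, was not detectable in PBS at this depth. It had 0 of the 230585995 counts of the PBS samples, which allows a level of up to 0.0130 CPM on the unnormalised total. With rhSema3C it had 4 counts in replicate 2 and 0 in replicates 1 and 3, so no fold change is given. Such limits cover counting error only, and reads without molecular identifiers are not independent molecules. The only *LRAT* transcript that the authors' table lists is of the retained intron type in GENCODE 29, not a coding one.

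**Figure D2:**
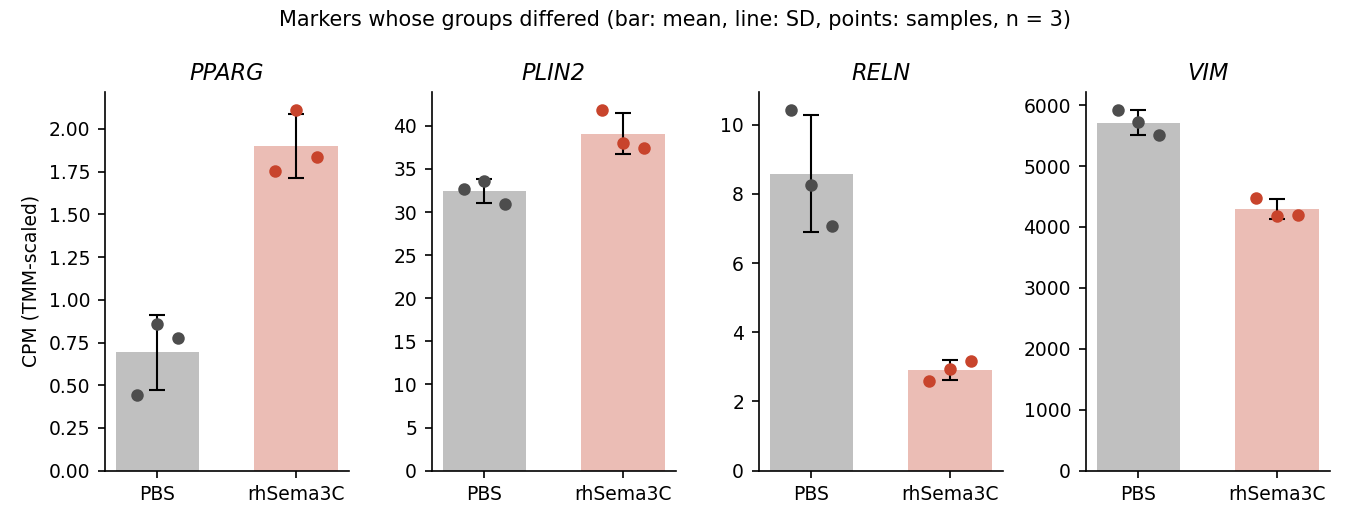
Normalised expression (CPM) of PPARG, PLIN2, RELN and VIM in PBS and rhSema3C samples, with bars for the mean, lines for the SD and points for the samples (n = 3 per group), on axes that start at 0. In each panel the points of the groups do not overlap, with PPARG and PLIN2 higher and RELN and VIM lower with rhSema3C.

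*RELN* (ENSG00000189056) changed most in the other direction. It lies on the minus strand of chromosome 7, from 103471784 to 103989516. It had 892, 576 and 465 counts under PBS and 224, 268 and 265 under rhSema3C. The corresponding CPM values were 10.4, 8.27 and 7.07 in PBS, and 2.60, 2.93 and 3.18 with rhSema3C. Every PBS sample was above every rhSema3C sample, and PBS replicate 1 was the highest of the 6. The means (± SD, n = 3 per group) were 8.59 ± 1.70 CPM in PBS and 2.90 ± 0.292 CPM with rhSema3C, so PBS was 2.96-fold above rhSema3C. Fitted on the log2 scale, the change was -1.58 with a standard error of 0.17 (edgeR quasi-likelihood over all 33900 genes, adjusted p = 0.00013). It stayed between -1.71 and -1.41 when any 1 sample was left out.

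Since *PPARG* rose and *RELN* fell, their order changed. The ratio of *PPARG* to *RELN* in FPKM was 0.116, 0.291 and 0.306 under PBS, and 1.88, 2.01 and 1.61 under rhSema3C. *PPARG* was thus below *RELN* in every PBS sample and above it in every rhSema3C sample.

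*VIM* (ENSG00000026025) lies on the plus strand of chromosome 10, from 17228241 to 17237593. Its expression was 5917, 5720 and 5506 CPM under PBS and 4480, 4186 and 4202 under rhSema3C. No sample of either group reached the other. The means (± SD, n = 3 per group) were 5714 ± 205 CPM in PBS and 4289 ± 166 CPM with rhSema3C, so PBS was 1.33-fold above rhSema3C. As a log2 fold change this was -0.41 with a standard error of 0.04 (edgeR quasi-likelihood, adjusted p = 5.3e-06). The size of this fall depended on the scaling between samples. With library size alone the median log2 fold change of all genes tested moved from 0.02 to 0.13, and with values rescaled to TPM (the same sum in every sample) to 0.23. On the TPM scale the log2 fold change of *VIM* was -0.19. *VIM* overlaps *VIM-AS1* on the other strand in 641 exonic bases. *VIM-AS1* had between 131 and 678 counts per sample, against at least 349980 for *VIM*.

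*DES* and *GFAP*, the other filament genes among the markers, were low. *DES* (ENSG00000175084), on chromosome 2 from 219418377 to 219426734, had 0, 4 and 0 counts under PBS and 12, 8 and 8 under rhSema3C. The groups did not overlap, but the adjusted p was 0.32 in edgeR's quasi-likelihood test over all 33900 genes. In limma on log2(TPM + 1) over the same genes it was 0.044, so *DES* passed there. These counts are all multiples of 4. In the whole table, between 2.14 and 2.44 times as many genes had a count of 4 as had 3 or 5 on average in the same sample. *GFAP* (ENSG00000131095), on the minus strand of chromosome 17 from 44903159 to 44916937, had 73, 66 and 75 counts in PBS and 91, 87 and 99 with rhSema3C. In CPM its groups overlapped, from 0.853 to 1.14 in PBS and from 0.951 to 1.19 with rhSema3C. The log2 fold change of *GFAP* was 0.11 with a standard error of 0.25 (edgeR quasi-likelihood over all 33900 genes, adjusted p = 0.81). *GFAP* shares 2230 exonic bases with both *CCDC103* and *FAM187A* on the other strand, which had between 212 and 742 counts per sample, and the source of its counts cannot be told apart unless strand was used.

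*NGFR* (ENSG00000064300), on chromosome 17 from 49495293 to 49515008, was expressed at a similar level in both groups. It had 13.3, 16.0 and 15.8 CPM under PBS, and 15.2, 16.0 and 14.0 CPM under rhSema3C. The ranges of the groups overlapped. The means were 15.0 ± 1.51 and 15.1 ± 1.04 CPM (SD, n = 3 per group). On the log2 scale they differed by 0.01 with a standard error of 0.10 (edgeR quasi-likelihood, adjusted p = 0.97), and its sign changed with the setting.

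*HGF* (ENSG00000019991), on the minus strand of chromosome 7 from 81699010 to 81770398, had 57, 99 and 77 counts in PBS and 107, 213 and 176 with rhSema3C. In CPM these were 0.666, 1.42 and 1.17, and 1.24, 2.33 and 2.11. The rhSema3C replicate 1 lay inside the PBS range and the other two above it. The log2 fold change was 0.80 with a standard error of 0.34 (edgeR quasi-likelihood over all 33900 genes, adjusted p = 0.14), and it did not pass. Without rhSema3C replicate 1 it was 1.05, with an adjusted p of 0.048.

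**Figure D3:**
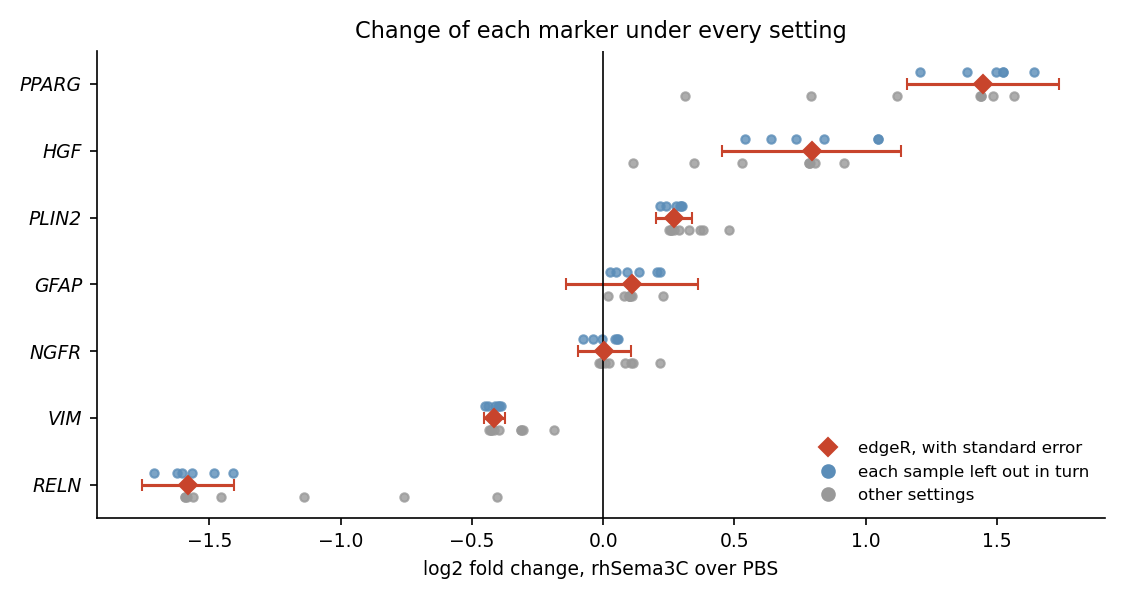
Log2 fold change (rhSema3C over PBS) of the 7 markers with enough counts, with the edgeR estimate and its standard error as a red diamond, the fits that leave out 1 sample in blue, and the other settings in grey. PPARG and PLIN2 stay above 0 and RELN and VIM below 0 in every fit, with the RELN and PPARG points nearest to 0 from log2(FPKM + 1), while NGFR lies on both sides.

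The upstream sequences of the 4 markers whose groups differed are shown to let their base composition be compared. They are the 250 bases before the RefSeq start on GRCh38.p14, 5′ to 3′ on the gene's strand. Capitals mark the GC box GGGCGG, the TATA box TATAAA, the nuclear receptor half-site AGGTCA and the E-box CACGTG, searched on both strands with overlaps counted. *PPARG* has 6 windows in the RefSeq table, and the one shown lies before the gene start given by the authors. LRAT and HGF also had a window, and NGFR, GFAP and DES had none.
PPARG, chr3:12287118-12287367, plus strand: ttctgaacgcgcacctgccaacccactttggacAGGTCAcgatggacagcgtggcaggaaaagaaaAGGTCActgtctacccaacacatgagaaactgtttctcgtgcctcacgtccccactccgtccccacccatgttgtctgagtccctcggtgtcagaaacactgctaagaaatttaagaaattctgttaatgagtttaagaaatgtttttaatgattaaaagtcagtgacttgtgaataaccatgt
PLIN2, chr9:19127493-19127742, minus strand: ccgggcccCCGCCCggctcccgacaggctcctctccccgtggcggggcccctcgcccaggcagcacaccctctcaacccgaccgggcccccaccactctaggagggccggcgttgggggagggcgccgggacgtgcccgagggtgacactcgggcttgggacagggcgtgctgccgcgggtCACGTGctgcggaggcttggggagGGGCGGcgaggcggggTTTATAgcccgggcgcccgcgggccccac
RELN, chr7:103989659-103989908, minus strand: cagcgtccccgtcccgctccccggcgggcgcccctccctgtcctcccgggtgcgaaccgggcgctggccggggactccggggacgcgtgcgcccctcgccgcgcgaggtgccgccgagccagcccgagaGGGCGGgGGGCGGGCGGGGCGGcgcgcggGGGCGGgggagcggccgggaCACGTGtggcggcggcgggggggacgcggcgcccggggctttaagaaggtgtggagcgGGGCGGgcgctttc
VIM, chr10:17227991-17228240, plus strand: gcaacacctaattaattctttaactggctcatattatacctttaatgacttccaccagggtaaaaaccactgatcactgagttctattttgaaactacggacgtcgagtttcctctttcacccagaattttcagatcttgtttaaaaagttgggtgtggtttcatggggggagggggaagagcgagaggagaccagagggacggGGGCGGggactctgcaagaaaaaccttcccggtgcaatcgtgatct

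The *RELN* window was 83.2% G and C with 43 CpG dinucleotides, and 99.0% of the 35116 RefSeq windows had fewer. It held 6 GC boxes and 1 E-box. The *PLIN2* window held 28 CpG dinucleotides, 2 GC boxes, 1 TATA box and 1 E-box, while those of *VIM* and *PPARG* held 8 CpG dinucleotides each. The *PPARG* window shown held 2 half-sites, and each of its other windows held 1 or 0. Those other windows had between 0 and 10 CpG dinucleotides. Over all RefSeq windows, 42.6% held a GC box, 10.7% a TATA box, 12.1% a half-site and 6.34% an E-box. A match is a description of the letters only.

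The other genes of each system were then counted in lists, in the test of 14178 genes, where the median log2 fold change of all genes was 0.02. Of 34 genes of retinoid handling, 20 were tested, 3 passed as higher and 9 as lower (adjusted p of 0.05), and the median was -0.22. The rises were in *ALDH1A3*, a retinaldehyde dehydrogenase that makes retinoic acid (log2 fold change 1.31, standard error 0.06), in the retinol dehydrogenase gene *RDH11* (1.19, standard error 0.04), and in *RARRES2*. *ALDH1A3* went from 5.94 ± 0.299 to 15.8 ± 0.717 FPKM (SD, n = 3 per group). *FABP5*, which encodes a fatty acid and retinoic acid carrier, and *RBP4*, which encodes the plasma retinol carrier, fell by 0.74 and 0.70 on the log2 scale. *DHRS3*, which encodes an enzyme that reduces retinaldehyde to retinol, fell by 1.27. The other falls were in *RDH10*, *RDH13*, *DHRS4* and the receptors *RARA*, *RXRA* and *RXRB*. This split depended on the scaling. Of all genes called, 50.9% were higher with TMM scaling, 62.3% with library size alone and 74.1% on the TPM scale. The TPM values were tested by limma on log2(TPM + 1), so there the test and a pseudocount changed along with the scaling. In this list the shares were 25%, 44.4% and 55.6%. With library size alone 4 of its genes were higher and 5 lower. On the TPM scale 5 were higher and 4 lower. There *RARA* and *RXRB* had log2 fold changes of 0.01, and *FABP5*, *RDH10* and *RDH13* did not pass either. The count of falls was also 5 without PBS replicate 3.

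Of 27 genes of lipid droplets, 19 were tested, 7 were higher and 6 lower, with a median of -0.02. *ACSL3*, an acyl-CoA ligase of nascent droplets, rose by 1.48 (standard error 0.05), and *HILPDA*, which encodes a droplet protein induced by hypoxia, rose by 1.47 (standard error 0.06), both on the log2 scale. The largest falls were in *PLIN3*, the ubiquitous relative of *PLIN2*, which changed by -0.93 on the log2 scale (standard error 0.04), and in the monoglyceride lipase gene *MGLL*, with -0.60 (standard error 0.04). *PLIN3* went from 57.0 ± 1.66 to 32.0 ± 0.391 FPKM (SD, n = 3 per group), and so was above *PLIN2* per length in both groups. *PLIN1*, *PLIN4* and *PLIN5*, of fat, muscle and oxidative tissues, were all under 0.5 FPKM. *G0S2*, which encodes an inhibitor of the lipase ATGL, was the most abundant of the list, with 963 ± 36.4 FPKM in PBS. Its log2 fold change was -0.21 with an adjusted p of 0.0013, but on the TPM scale it was 0.02. On that scale 10 genes of the list were higher and 4 lower, so 71.4% of its calls were higher, against 74.1% over all genes.

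Of 24 partners and targets of PPARG, 12 were tested, 7 were higher and 3 lower, with a median of 0.28. With TMM scaling 70% of the list's calls were higher, against 50.9% over all genes. With values rescaled to TPM, 9 were higher and 3 lower, and the shares were 75% and 74.1%. The stearoyl-CoA desaturase gene *SCD* rose by 1.34 (standard error 0.04) and the transcription factor gene *KLF4* by 1.22 (standard error 0.08) on the log2 scale. *ANGPTL4*, a secreted inhibitor of lipoprotein lipase, and *CEBPD*, a transcription factor of early fat cell differentiation, rose by 0.79 and 0.64. *RXRA*, which encodes the binding partner of PPARG, fell by 0.50. *CPT1A*, which encodes the entry enzyme of mitochondrial fatty acid oxidation, fell by 0.54 (standard error 0.07). The classical fat cell targets *FABP4*, *CD36* and *LPL* were all under 0.1 FPKM in both groups, with adjusted p of 0.85, 0.91 and 0.999 over all 33900 genes in edgeR's quasi-likelihood test.

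Of 19 further genes of intermediate filaments and their linkers, 11 were tested, 0 were higher and 8 lower, with a median of -0.60. With values rescaled to TPM, 0 were higher and 7 lower, and DESeq2 and limma on log2(FPKM + 1), like edgeR, called 0 higher, also at an unadjusted p of 0.05. The most abundant was *KRT18*, a keratin of simple epithelia, with 87.4 ± 6.23 FPKM in PBS and 49.1 ± 0.470 with rhSema3C (SD, n = 3 per group). Its log2 fold change was -0.94 (standard error 0.05), and that of its partner *KRT8* was -0.54 (standard error 0.05). The nuclear lamina genes *LMNB2* and *LMNB1* fell by 0.78 and 0.33 on the log2 scale. *SYNM*, which encodes synemin, a partner of vimentin and desmin, fell by 0.68, and *NES*, which encodes nestin, was under the filter, with 0.328 ± 0.0475 and 0.178 ± 0.0641 FPKM. The summed level of 5 cholangiocyte markers was between 52.8 and 63.2 CPM in PBS and between 35.9 and 38.9 CPM with rhSema3C. These markers include *KRT7* and *KRT19*, which are also on the filament list. Only *KRT7* and *SOX9* were tested, and *SOX9* alone was lower. *KRT7* had a log2 fold change of 0.02 (edgeR quasi-likelihood, adjusted p = 0.92). The part of this shift in the filament falls was not tested.

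Of 30 partners of reelin, neurotrophins and HGF, 15 were tested, 7 were higher and 3 lower, with a median of 0.30. While *RELN* fell, its receptors *VLDLR* and *LRP8* rose, by 1.51 (standard error 0.11) and 0.52 (standard error 0.05) on the log2 scale. *VLDLR* went from 1.02 ± 0.177 to 3.12 ± 0.109 FPKM (SD, n = 3 per group). *DAB1*, the adaptor of both receptors, had 1 count in all 6 samples together. *SORT1*, which encodes the NGFR partner sortilin, fell by 0.30, and *BEX3*, which encodes a protein that binds the intracellular part of NGFR, rose by 0.49. *MET*, which encodes the HGF receptor, had 8.08 ± 1.40 and 7.15 ± 0.977 FPKM and did not pass (edgeR quasi-likelihood, adjusted p = 0.069). *MST1*, which encodes an HGF-like protein, rose by 1.26 (standard error 0.13). The adaptor genes *MAGED1* and *GRB2* fell by 0.41 and 0.31. On the TPM scale 11 genes of this list were higher and 1 lower, so 91.7% of its calls were higher, against 74.1% over all genes. There *SORT1* and *GRB2*, at -0.08 each, did not pass (limma, adjusted p = 0.16 and 0.074).

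**Figure D4:**
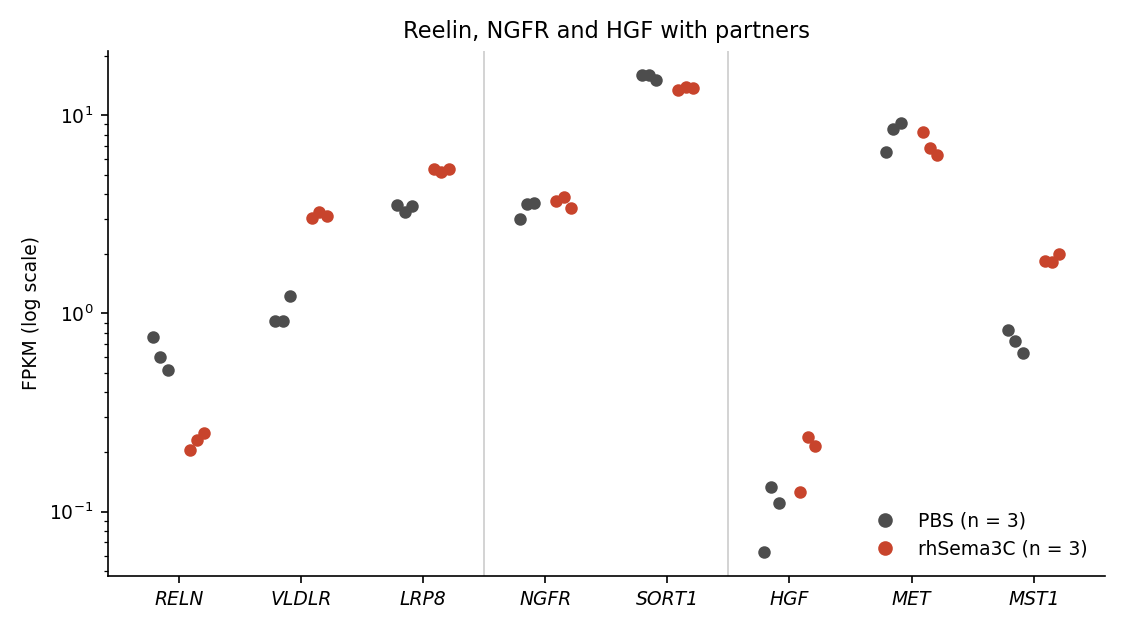
FPKM on a log scale of reelin and its receptors (left), NGFR and the sortilin gene SORT1 (middle), and HGF, its receptor MET and MST1 (right) in each PBS (grey) and rhSema3C (red) sample, n = 3 per group. RELN lies lower and VLDLR, LRP8 and MST1 higher in every rhSema3C sample, while the NGFR, HGF and MET samples overlap.

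Of 25 other genes linked to stellate cell identity, 15 were tested, 6 were higher and 3 lower, with a median of 0.09. With TMM scaling 66.7% of the list's calls were higher, against 50.9% over all genes. With values rescaled to TPM, 8 were higher and 3 lower, and the shares were 72.7% and 74.1%. The extracellular matrix protein gene *ECM1*, the most abundant, fell from 45.1 ± 1.71 to 29.5 ± 0.688 FPKM (SD, n = 3 per group), which is -0.71 on the log2 scale (standard error 0.04). *NTM*, which encodes the adhesion molecule neurotrimin, fell by 0.70, and *TCF21*, a transcription factor gene of mesenchymal cells, by 0.60. *HAND2* and *ETS2*, which also encode transcription factors, rose by 0.60 (standard error 0.16) and 0.47 (standard error 0.05). The transcription factor genes *LHX2* and *GATA4*, associated with quiescence, had 2.03 ± 0.332 and 4.85 ± 0.297 FPKM in PBS and did not pass (edgeR quasi-likelihood, adjusted p = 0.57 and 0.32).

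For comparison, of 16 contractile and matrix genes of activated stellate cells, 14 were tested, 1 was higher and 11 lower, with a median of -0.55. The rise was in *LOX*, which encodes a collagen crosslinking enzyme (log2 fold change 1.05, standard error 0.05). *ACTA2*, which encodes α-smooth muscle actin, went from 14.3 ± 0.766 to 10.4 ± 0.564 FPKM (SD, n = 3 per group), which is -0.56 on the log2 scale (standard error 0.07). *TAGLN* and *CCN2* fell most, by 2.70 and 2.40, and *SPARC* least, by 0.28. On the TPM scale 2 were higher and 10 lower, *SPARC* had a log2 fold change of -0.05 and did not pass (limma, adjusted p = 0.32), and *COL3A1*, a collagen III gene, went from -0.36 to -0.13 but still passed.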

How the data were processed

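RNA was extracted with TRIzol and libraries were made with a SMARTER mRNA-seq kit, per the labels. According to the paper's methods, they were sequenced on an Illumina NovaSeq and Cufflinks and cuffmerge were used for differential expression. The table deposited by the authors holds raw whole-number counts for each gene and FPKM, which the authors scaled to exon length and library size. Which aligner, counter, strand setting and genome build were used is not given in the sources used here. Of the genes, 97.0% had an identifier in GENCODE 29 (GRCh38).

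Counts were scaled by TMM factors and compared with edgeR 4.0.16 (glmQLFit and glmQLFTest, R 4.3.3) for 14178 genes (mean FPKM 0.5 or more), without a replicate block, and p-values were adjusted by Benjamini-Hochberg. A count of 3 per library was taken as the floor. DESeq2 1.42.0 and limma 3.58.1 (pseudocounts 1 and 0.1) served as alternatives, beside other scalings, other filters, the replicate block and each sample left out. The levels per longest coding transcript were added after the data were seen. The edgeR, limma and DESeq2 tests were tested on simulated counts with 200 changed genes, as many up as down. In the data 62.3% of the genes tested passed, so the simulation does not cover that setting. The members and gene lists were chosen with earlier results of these data known, so their counts are descriptions. From each list, the text names the 2 largest and 2 smallest changes at a mean FPKM of at least 1, the most abundant gene, and others chosen after their values were seen. A few genes that this rule names are not reported here. *TTR*, *CYP26C1*, *CIDEA*, *CIDEB*, *ADIPOQ*, *NTRK2* and *HPN*, also on the lists, were not analysed here. Upstream sequences come from RefSeq (GRCh38.p14), and 6 of the 9 markers had one. Figures were drawn with matplotlib 3.10.9.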

Additional observations from a re-analysis of the deposited data

How the results depend on the processing

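*PPARG*, *RELN*, *PLIN2* and *VIM* kept their direction under every alternative (*PLIN2* and *VIM* in the fits with the filter), with log2 fold changes from 0.31 to 1.64, -1.71 to -0.40, 0.22 to 0.48 and -0.45 to -0.19. The values 0.31 for *PPARG* and -0.40 for *RELN* are differences of log2(FPKM + 1), where the added 1 shrinks changes of genes under 1 FPKM. The fits on counts gave 1.21 to 1.64 for *PPARG* and -1.71 to -1.41 for *RELN*. The sign of *NGFR* turned with DESeq2 (-0.0067), median-of-ratios scaling (-0.0076), no filter (-0.0067) and filterByExpr of edgeR (-0.014), and with samples left out (-0.077 to 0.057). The cause was not tested. Without a filter or with filterByExpr, 2 markers were higher and 2 lower, since more markers were tested. Leaving out a sample gave 1 to 3 higher and 2 lower over all genes, 1 higher and 1 lower with the filter. On the TPM scale (limma) *VIM* had an adjusted p of 0.053 in the fit over all genes, which left 1 marker lower. In that fit *DES* passed with an adjusted p of 0.044, which gave 3 markers higher. Among all genes with the filter, 6934 were higher and 2428 lower on that scale, against 4490 and 4339. In edgeR with samples left out, they were 4065 to 4301 and 3991 to 4203. In the retinoid list 5 were lower with library size alone and with limma on FPKM at either pseudocount, against 9, with 5 to 10 lower and 2 to 3 higher over samples left out, and 5 higher and 4 lower on the TPM scale. The partners of reelin, neurotrophins and HGF gave 11 higher and 1 lower on that scale. In the activation list 2 were higher with library size alone, with limma on FPKM at both pseudocounts and on TPM at a pseudocount of 1, and 1 to 2 with samples left out. Per longest coding transcript the PBS levels were 0.314 for *PPARG*, 15.6 for *PLIN2*, 4.13 for *NGFR*, 0.147 for *GFAP*, 2502 for *VIM* and 0.167 for *HGF*, by construction. Replicate numbers are shared between the groups. Same-numbered samples had correlations of -0.0041, 0.058 and -0.027, and differently numbered ones lay between -0.070 and 0.071, so no pairing by number showed in the values. Such correlations cannot tell whether same-numbered samples shared a culture or preparation. With the replicate block 4221 genes were higher and 4120 lower, and *PPARG*, *PLIN2*, *RELN* and *VIM* still passed.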

Other observations

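*ALDH1A1*, which encodes a retinaldehyde dehydrogenase, varied between replicates of the same group. It had 0, 1212 and 1037 counts under PBS and 255, 0 and 8 under rhSema3C. The fitted log2 fold change of -3.44 had a standard error of 1.48 and did not pass (edgeR quasi-likelihood, adjusted p = 0.063). *ALDH1A3*, of the same enzyme family, was even within the groups, between 5.61 and 6.19 FPKM in PBS and between 15.4 and 16.7 with rhSema3C. *STRA6*, another gene of the retinoid list and under the filter, ranked the replicates of each group in the same order as *ALDH1A1*. It had 15, 125 and 109 counts under PBS and 34, 0 and 6 under rhSema3C. The cause was not tested.

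*COLEC11*, a collectin gene linked to stellate cells, was under the filter, with 0.0372 ± 0.0448 FPKM in PBS and 0.289 ± 0.0455 with rhSema3C (SD, n = 3 per group), and its adjusted p over all 33900 genes was 0.025 in edgeR's quasi-likelihood test. *RGS5*, a marker of pericytes, went from 0.329 ± 0.0072 to 0.527 ± 0.0157 FPKM, with an adjusted p of 0.027 in the same fit.

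Over the 6 samples, the genes whose centred log2 CPM lay closest to *VIM* were *PFDN1*, a subunit gene of the chaperone prefoldin, and *RCC1*, a regulator of the GTPase Ran, at root mean square distances of 0.015 and 0.016 among 11585 genes compared. For *PLIN2* they were *SNRPA1* and *CCDC57*, at 0.026 and 0.032. For *NGFR* they were *NSMCE4A* and *TCAF1*, at 0.044 and 0.045. With 6 samples in 2 groups such closeness is a description only.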
